A study of Mus musculus with 12 samples.

Results

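Transforming growth factor-β (TGF-β) signaling was followed through 10 genes in cultures labelled as primary mouse adult fibroblasts: the ligand genes *Tgfb1*, *Tgfb2* and *Tgfb3*, the latency gene *Ltbp1*, the receptor genes *Tgfbr1*, *Tgfbr2* and *Tgfbr3*, the transducer *Smad3*, the inhibitor *Smad7* and the induced matrix gene *Tgfbi*. The 10 were listed by symbol, and all 10 were present among the 10697 genes measured. Per the labels both groups were wild-type cells of C57BL6/j mice, grown out of biopsies in high-glucose medium with serum. According to the study's methods the mice were male, and the labels give no age. In 6 libraries the cells had received 100 µM thymol, a phenolic monoterpene of thyme and oregano dissolved in DMSO, for 24 h, and in 6 libraries an equal volume of DMSO alone. Transcripts were read by QuantSeq, which primes at the poly(A) tail and reads the transcript end. PCR copies aside, this gives roughly 1 read per mRNA molecule sampled, independent of length. Levels are given as log2 CPM, where CPM is a gene's reads scaled to the library's total, and all differences are thymol minus DMSO. The labels name neither the animals nor the cultures behind the replicate numbers, so the p-values measure the spread between these libraries, which may be technical.

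TGF-β ligands are made as precursors and secreted in a latent form, folded together with their own propeptide and tethered to the matrix by latent TGF-β binding proteins such as LTBP1. Once released, the ligand binds TGFBR2, which phosphorylates TGFBR1, and TGFBR1 in turn phosphorylates SMAD2 and SMAD3, which enter the nucleus with SMAD4. In fibroblasts this pathway is best known for driving collagen synthesis and the myofibroblast state, and SMAD7, itself a target gene, feeds back to shut the receptors down.

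Thymol-treated cultures had less mRNA for 3 of the 10 genes. *Tgfb2* was 32.9% lower, *Tgfbi* 32.3% lower and *Tgfb3* 20.0% lower, and each of these differences passed the limma test at an adjusted p-value threshold of 0.05. *Tgfb1*, *Ltbp1*, the 3 receptors, *Smad3* and *Smad7* did not pass. Over all genes, 2.22% passed this threshold, 1.57% towards lower and 0.654% towards higher expression, and 0 of the 10 genes passed towards higher expression in limma, with 1 of them (*Tgfbr1*) higher at an unadjusted p-value under 0.05. The median log2 fold change was 0.029 over the 10 genes and 0.0026 over all genes. The 10 genes were chosen with earlier results of these data known, so the count of 3 is a description.

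The promoters of *Tgfb2* and *Tgfbi*, whose transcripts fell, are shown beside that of *Tgfb1*, a ligand gene whose transcript did not pass the test. Each runs from 250 bases before to 50 bases after the annotated start in RefSeq on GRCm38.p6, 5′ to 3′ on the strand of the gene. That of *Tgfb2* lies at chr1:186705940-186706239 (minus strand), that of *Tgfbi* at chr13:56609336-56609635 (plus strand) and that of *Tgfb1* at chr7:25686752-25687051 (plus strand). Capitals mark matches on either strand to the motifs listed after the sequences.
Tgfb2 promoter: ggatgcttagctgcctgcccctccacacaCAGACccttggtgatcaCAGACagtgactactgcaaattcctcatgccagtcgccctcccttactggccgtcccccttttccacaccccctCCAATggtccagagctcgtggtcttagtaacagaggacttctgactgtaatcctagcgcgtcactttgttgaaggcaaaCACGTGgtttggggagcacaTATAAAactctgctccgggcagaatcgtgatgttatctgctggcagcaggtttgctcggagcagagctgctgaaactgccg
Tgfbi promoter: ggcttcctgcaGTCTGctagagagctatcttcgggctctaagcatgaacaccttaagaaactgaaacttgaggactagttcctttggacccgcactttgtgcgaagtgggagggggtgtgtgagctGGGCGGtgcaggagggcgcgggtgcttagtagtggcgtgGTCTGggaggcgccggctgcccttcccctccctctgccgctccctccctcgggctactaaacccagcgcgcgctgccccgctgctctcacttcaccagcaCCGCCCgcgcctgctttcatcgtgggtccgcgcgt
Tgfb1 promoter: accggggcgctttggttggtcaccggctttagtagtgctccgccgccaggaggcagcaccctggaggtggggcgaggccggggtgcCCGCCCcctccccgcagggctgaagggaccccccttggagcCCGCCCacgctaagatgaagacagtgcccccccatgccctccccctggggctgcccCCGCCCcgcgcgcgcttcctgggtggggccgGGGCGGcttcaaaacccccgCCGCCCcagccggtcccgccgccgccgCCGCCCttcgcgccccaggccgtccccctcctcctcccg

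The motifs searched on both strands were the SMAD box CAGAC, the TATA box TATAAA, the E-box CACGTG, the cAMP response element TGACGTCA, the AP-1 site TGANTCA, the GC box GGGCGG and the CCAAT box, and no matches overlapped in the 3 promoters shown. The *Tgfb2* promoter held 2 SMAD boxes, a CCAAT box, an E-box from position -51 and a TATA box from position -31, counted from the first transcribed base as 1 with no position 0. The *Tgfbi* promoter held 2 SMAD boxes and 2 GC boxes. The *Tgfb1* promoter held 6 GC boxes and no other match, and 77% of its bases were G or C, against 54.3% in *Tgfb2* and 63.3% in *Tgfbi*. SMAD boxes also stood in promoters of *Ltbp1*, *Tgfbr1* and *Tgfbr2*, which did not pass the test, and not in that of *Smad3*, which did not pass either. Of 32851 promoters of the same length, 49.6% held the SMAD box, 13.6% the TATA box, 7.15% the E-box, 35.7% the GC box and 37.4% the CCAAT box. The cAMP response element was in 1.79% of them and the AP-1 site in 7.81%. The counts for the 10 genes covered 7 of them, with 9 promoters, of which 6 held the SMAD box, 5 the CCAAT box and 4 the GC box. Promoters on chromosome 18, where *Smad7* lies, were left out of these counts but not out of the 32851. The TATA box and the E-box were each in 1 of the 9 (*Tgfb2*), the cAMP response element was in 1 (*Ltbp1*) and the AP-1 site in 0. These matches describe letters in a window and were not tested as binding sites.

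**Figure D1:**
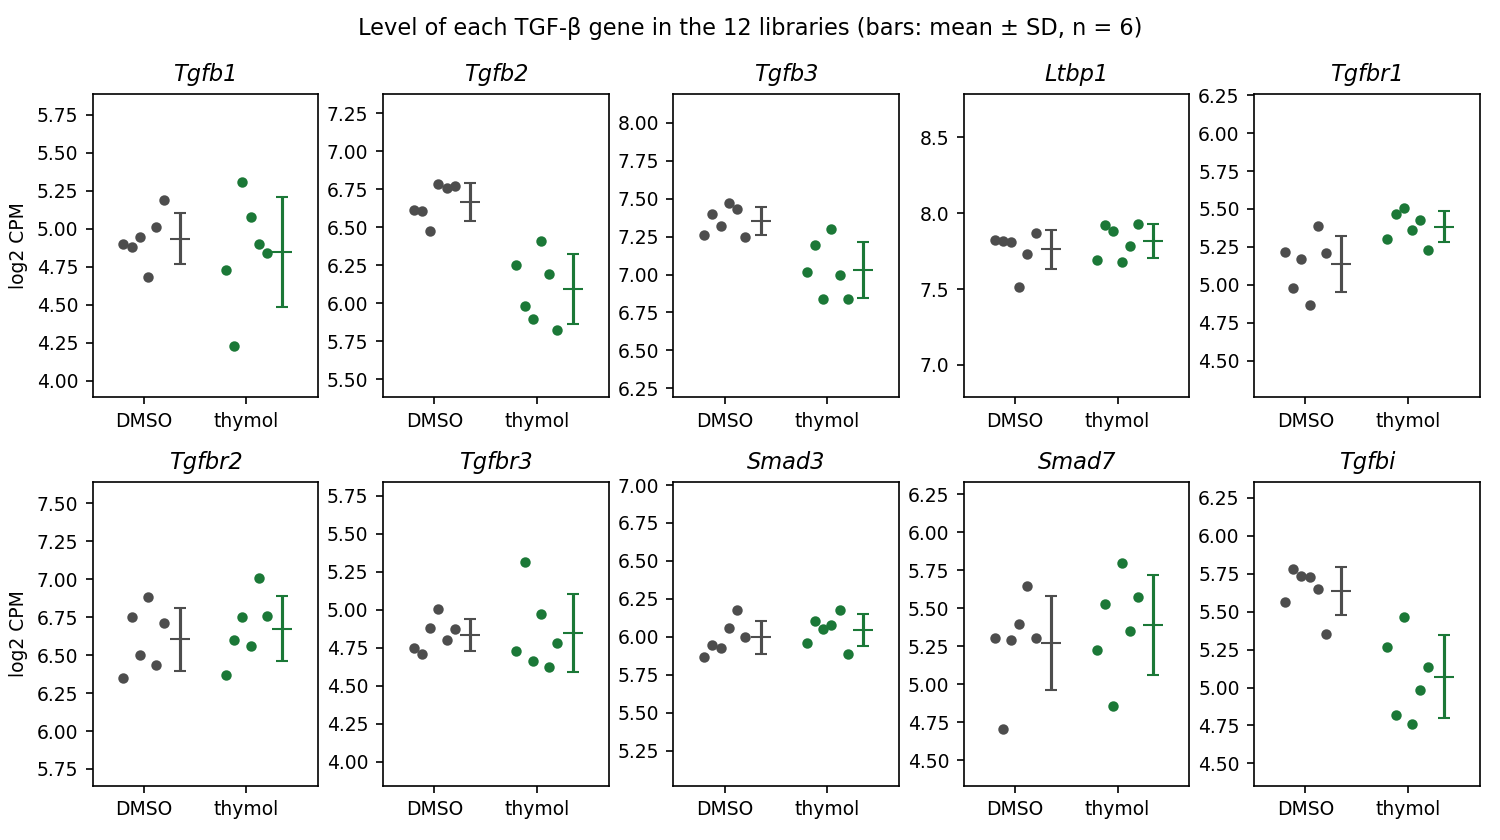
Level of each of the 10 genes in log2 CPM (vertical axes, each spanning the same range of 2 units) in the 6 DMSO and 6 thymol libraries, with points in order of replicate number and bars for the mean ± SD. The thymol points of *Tgfb2* all lie below the DMSO points, and 5 of 6 do so for *Tgfb3* and *Tgfbi*.

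*Tgfb2* (chromosome 1, 186622792 to 186705989, minus strand) encodes the ligand that depends most on the co-receptor TGFBR3 for binding. Its DMSO libraries ranged from 6.47 to 6.79 log2 CPM with a median of 6.69, and its thymol libraries from 5.83 to 6.41 with a median of 6.09. All 6 thymol libraries lay below every DMSO library, a separation in that direction shown by 1.16% of all genes and by no other of the 10. The log2 fold change was -0.58 ± 0.088 (SE, limma adjusted p = 1.1e-05), resting on 307 to 767 reads per library. *Tgfb2* passed in every alternative fit that was run.

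*Tgfb3* (chromosome 12, 86056745 to 86079041, minus strand) encodes the ligand with the highest level here. It ranged from 7.24 to 7.47 log2 CPM in DMSO, with a median of 7.36, and from 6.84 to 7.30 in thymol, with a median of 7.01. In thymol replicate 4 alone the level reached into the DMSO range, and the other 5 thymol libraries lay below every DMSO library. The log2 fold change was -0.32 ± 0.072 (SE, limma adjusted p = 0.0047). *Tgfb3* no longer passed without the mean-variance trend in the fit (adjusted p = 0.16), nor in the even-numbered libraries alone, where it changed by -0.26 (adjusted p = 0.22). Its 3′ end lies inside *Ttll5*, a gene on the opposite strand, and the strand setting of the read counting is not given in the sources used here. *Ttll5* itself had a mean of 3.93 log2 CPM in DMSO and a log2 fold change of 0.15 (limma adjusted p = 0.84).

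*Tgfb1* (chromosome 7, 25687002 to 25705077, plus strand), the ligand most often linked to fibrosis and immune regulation, ranged from 4.68 to 5.19 log2 CPM in DMSO and from 4.23 to 5.31 in thymol. The medians were 4.92 and 4.87, and the groups overlapped, with 1 thymol library below and 1 above every DMSO library. The thymol libraries were the more scattered, with an SD of 0.36 against 0.17. The log2 fold change was -0.090, with a 95% interval from -0.36 to 0.18 (limma adjusted p = 0.89). Whether *Tgfb1* responded differently from *Tgfb2* was not tested.

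**Figure D2:**
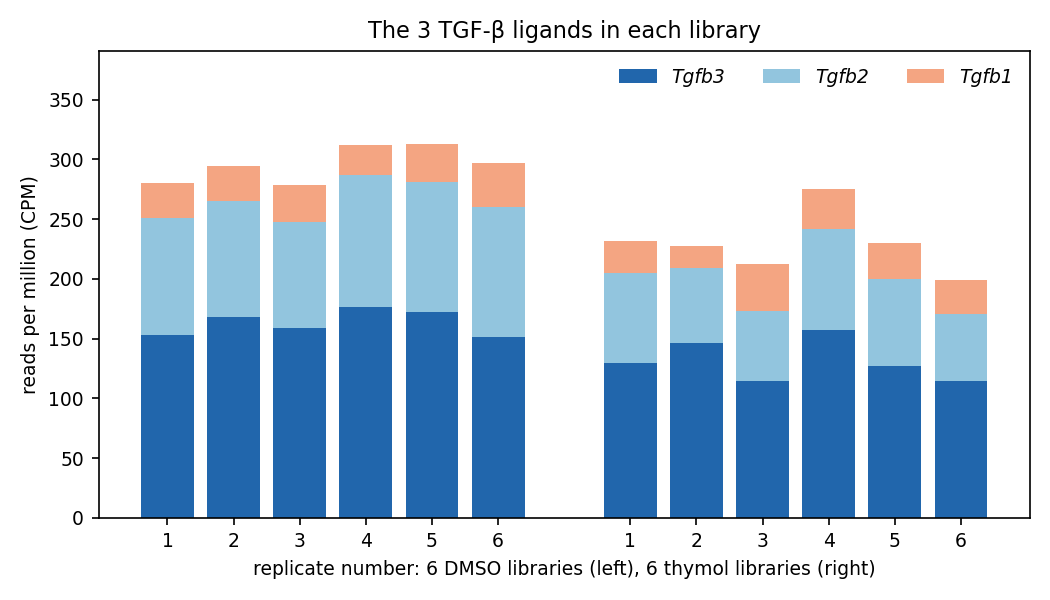
Stacked CPM of *Tgfb3*, *Tgfb2* and *Tgfb1* in each of the 12 libraries. The stacks stand at 278 to 313 CPM in the DMSO libraries and at 199 to 275 in the thymol libraries, and the *Tgfb1* segment is the smallest in every library.

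The 3 ligand transcripts together came to 296 ± 14.9 CPM in DMSO and 229 ± 25.8 in thymol (SD, n = 6 each), as the stacked plot of ligand reads shows. These sums and the shares below are given as a description, with no test, since the genes were chosen with their results known. *Tgfb3* made up 55.3% ± 2.34 of the ligand reads in DMSO and 57.3% ± 3.64 in thymol (SD, n = 6 each). *Tgfb2* made up 34.4% ± 1.73 in DMSO and 29.9% ± 2.20 in thymol. The remaining 10.3% ± 1.34 in DMSO and 12.9% ± 3.43 in thymol came from *Tgfb1*. The order *Tgfb3*, *Tgfb2*, *Tgfb1* was the same in both groups.

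*Ltbp1* (chromosome 17, 75005568 to 75392512, plus strand), which holds latent ligand in the matrix, had the highest level of the 10 genes. It ranged from 7.51 to 7.87 log2 CPM in DMSO, with a median of 7.82, and from 7.68 to 7.93 in thymol, with a median of 7.83. Its log2 fold change was 0.053, with a 95% interval from -0.074 to 0.18 (limma adjusted p = 0.84).

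The receptor genes did not pass in either direction. *Tgfbr1* (chromosome 4, 47353222 to 47414931, plus strand), the signaling kinase of the receptor pair, ranged from 4.86 to 5.39 log2 CPM in DMSO and from 5.23 to 5.51 in thymol, with 3 thymol libraries above every DMSO library. Its log2 fold change was 0.25 ± 0.11 (SE, 95% interval 0.027 to 0.46), with an unadjusted p-value of 0.029 and a limma adjusted p-value of 0.33. An unadjusted p-value under 0.05 was held by 11.8% of all genes. The ligand-binding kinase *Tgfbr2* (chromosome 9, 116084293 to 116175360, minus strand) ranged from 6.35 to 6.88 log2 CPM in DMSO and from 6.37 to 7.01 in thymol, a log2 fold change of 0.070 with a 95% interval from -0.11 to 0.25. Within DMSO its 3 odd-numbered libraries lay at 6.35 to 6.50 and its 3 even-numbered libraries at 6.71 to 6.88, a split seen after the values were known. The DMSO libraries were also parted by odd and even number on the first principal component, the axis of most variation between libraries (19.1%). The odd ones lay at -2.2 to 0.59 and the even ones at -9.9 to -4.5. In thymol the odd and even libraries overlapped on it, at -0.34 to 7.8 and 0.69 to 5.0. Within each group the library names run through the odd numbers first, and whether a batch was involved was not tested. The co-receptor *Tgfbr3* (chromosome 5, 107106570 to 107289629, minus strand), also called betaglycan, ranged from 4.71 to 5.01 log2 CPM in DMSO and from 4.62 to 5.31 in thymol. Its log2 fold change was 0.010, with a 95% interval from -0.24 to 0.27, and it had the lowest DMSO level of the 10 genes. Of the reads from the 3 receptors, *Tgfbr2* gave 60.4% ± 4.54 in DMSO and 59.1% ± 4.55 in thymol (SD, n = 6 each, no test). *Tgfbr1* gave 22.0% ± 3.98 and 24.1% ± 1.96 in the same order, and *Tgfbr3* gave 17.6% ± 1.09 and 16.8% ± 3.41.

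Neither SMAD gene passed. *Smad3* (chromosome 9, 63646767 to 63757994, minus strand), the transducer that carries the signal to DNA, ranged from 5.87 to 6.17 log2 CPM in DMSO and from 5.89 to 6.18 in thymol, and the ranges of the groups almost coincided. Its log2 fold change was 0.047, with a 95% interval from -0.12 to 0.22 (limma adjusted p = 0.91). *Smad7* (chromosome 18, 75367529 to 75395935, plus strand), the inhibitory SMAD, was the most scattered of the 10 genes in DMSO, where it ranged from 4.70 to 5.65 log2 CPM against 4.85 to 5.80 in thymol. Its log2 fold change was 0.12, with a 95% interval from -0.14 to 0.37 (limma adjusted p = 0.82). In the odd-numbered libraries alone its log2 fold change was -0.27 (limma adjusted p = 0.75) and in the even-numbered ones 0.50 (limma adjusted p = 0.11), and the gap between these was not tested.

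**Figure D3:**
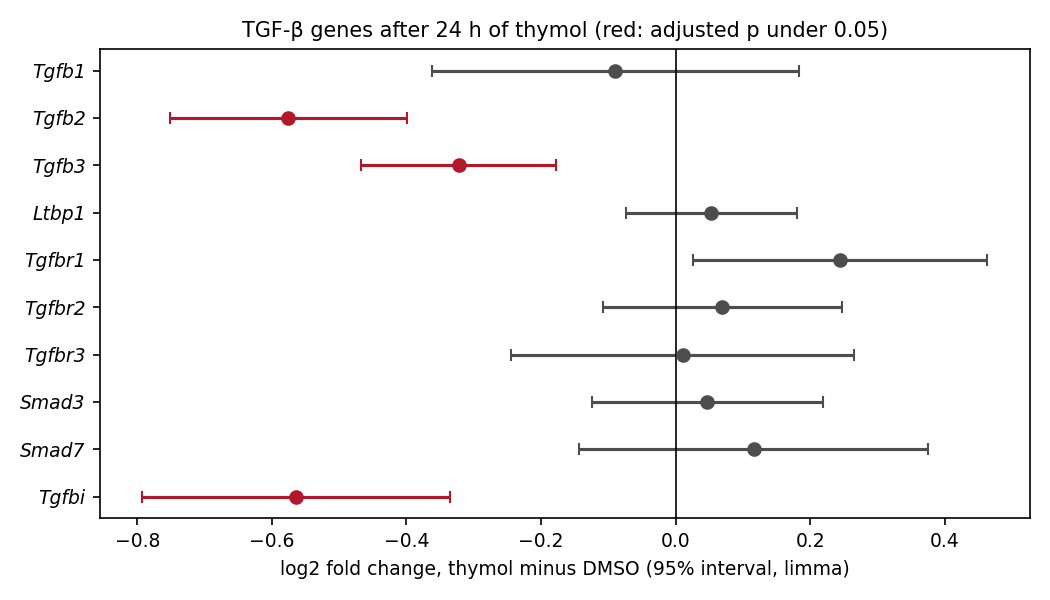
Log2 fold change of each gene (horizontal axis, thymol minus DMSO) with its 95% interval from limma, red where the adjusted p-value was under 0.05. The intervals of *Tgfb2*, *Tgfb3* and *Tgfbi* lie wholly below 0, that of *Tgfbr1* wholly above 0 without passing the adjusted threshold, and the other 6 include 0.

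*Tgfbi* (chromosome 13, 56609523 to 56639562, plus strand) encodes a secreted matrix protein that binds integrins and collagen, and it was named for its induction by TGF-β. It ranged from 5.36 to 5.78 log2 CPM in DMSO, with a median of 5.69, and from 4.76 to 5.47 in thymol, with a median of 5.06. With thymol, 5 libraries lay below every DMSO library, while thymol replicate 3, at 5.47, stood above DMSO replicate 6, at 5.36. The log2 fold change was -0.56 ± 0.11 (SE, limma adjusted p = 0.0013), resting on 157 to 426 reads per library. *Tgfbi* no longer passed without the mean-variance trend (adjusted p = 0.066), nor in the odd-numbered libraries alone, where it changed by -0.41 (adjusted p = 0.31), and it passed in the even-numbered ones with a change of -0.72 (adjusted p = 0.0046).

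The DMSO levels of the 10 genes, on the log2 CPM scale of 3′ reads, ran in the order *Ltbp1*, *Tgfb3*, *Tgfb2*, *Tgfbr2*, *Smad3*, *Tgfbi*, *Smad7*, *Tgfbr1*, *Tgfb1* and *Tgfbr3*. *Ltbp1* stood above *Tgfb3* by 0.41 and *Tgfb3* above *Tgfb2* by 0.68, and the 6 libraries of these neighbours did not overlap. *Tgfb2* and *Tgfbr2* differed by 0.063, with *Tgfb2* the higher in 3 of 6 libraries, so their order was within the spread. *Tgfbr2* and *Smad3* did not overlap, nor did *Smad3* and *Tgfbi*. From *Tgfbi* down to *Tgfbr3* each gene overlapped its neighbour, although within a library *Tgfbi* exceeded *Smad7* in 6 of 6. The median over all genes was 5.02 log2 CPM, between the DMSO means of *Tgfbr1* and *Tgfb1*.

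**Figure D4:**
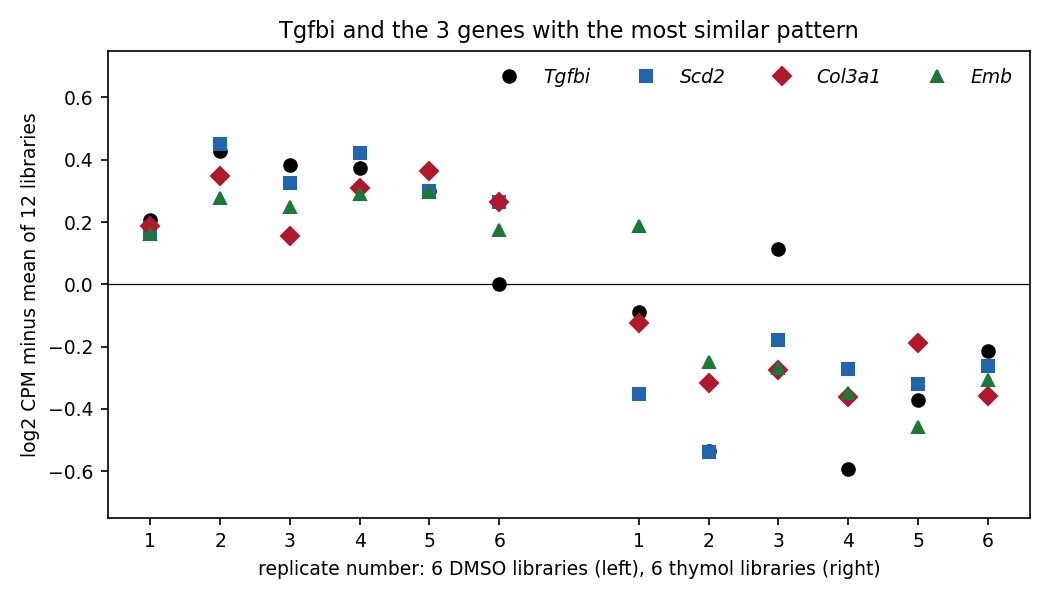
Log2 CPM of *Tgfbi* and of the 3 genes with the most similar pattern, each minus its own mean over the 12 libraries, by replicate number. Apart from *Tgfbi* in thymol replicate 3 and *Emb* in thymol replicate 1, the points in the thymol libraries lie below 0.

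Among 5386 other genes with a mean of at least 5 log2 CPM, those whose pattern over the 12 libraries came closest to *Tgfbi* were *Scd2*, a fatty acid desaturase, *Col3a1*, the fibrillar collagen III gene, and *Emb*, which encodes the membrane glycoprotein embigin. Their root mean square difference from *Tgfbi*, after each gene was centred on its own mean, was 0.17, 0.19 and 0.20 log2 units, against a median of 0.37 over the compared genes. Their log2 fold changes were -0.64, -0.54 and -0.48, so the likeness includes the treatment difference.

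Other genes of the pathway were read from 6 lists by role, with the 10 genes above left out. Of 103 distinct genes 91 were in the table, and 8 of the 91 (8.79%) passed the threshold, all of them lower with thymol, beside 2.22% of all genes. The median log2 fold change of the 91 was -0.056. The list genes were not matched to all genes for level. Median levels ran from 5.75 log2 CPM (inhibitors) to 9.05 (target genes), beside 5.02 over all genes. Among the 5394 genes with a mean of at least 5 log2 CPM, 230 passed in a fit of their own, and 7 of these were list genes. The count of 8 rested on single libraries: it was 5 without DMSO replicate 1, DMSO replicate 2 or thymol replicate 2, 4 without thymol replicate 6, 3 without thymol replicate 3 and 13 without thymol replicate 5. Without the mean-variance trend 1 of the 91, *Col3a1*, passed. The lists were chosen with earlier results of these data known, so their counts are descriptions.

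**Figure D5:**
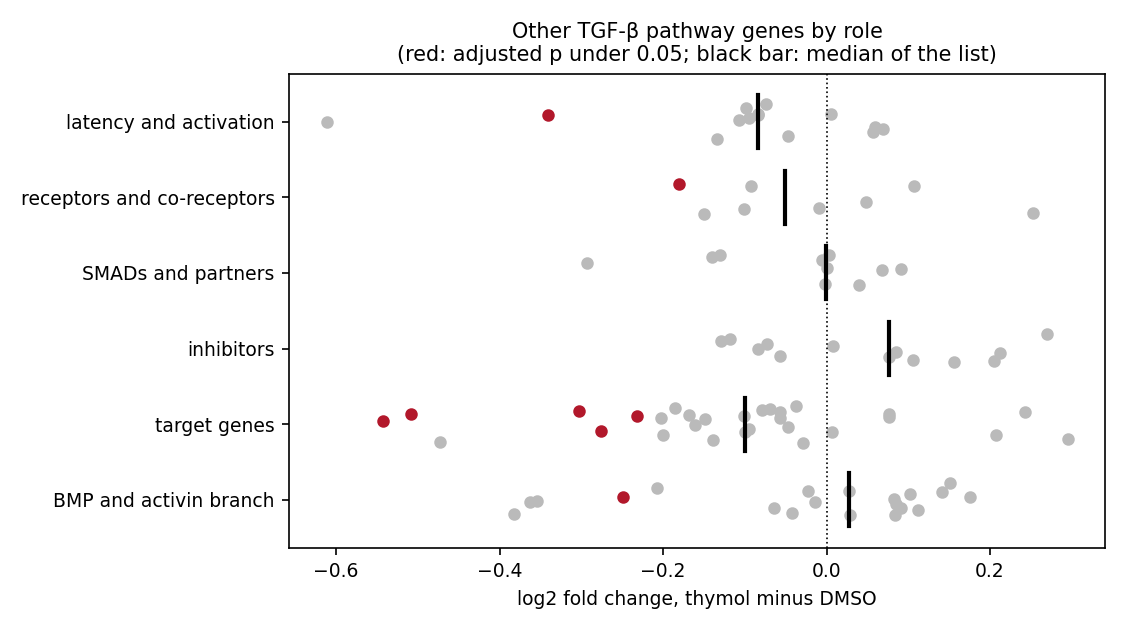
Log2 fold change (horizontal axis, thymol minus DMSO) of every measured gene of the 6 lists, one point per gene, red where the limma adjusted p-value was under 0.05 and with a black bar at the median of each list. The 8 distinct red genes all lie below 0, and 5 of them are target genes.

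Target genes, those known to rise in fibroblasts given TGF-β, held most of these calls. Of 29 measured, 5 fell past the threshold (17.2%), beside 1.57% of all genes towards lower expression, and 0 passed towards higher expression in limma. Among the 29, 15 had an unadjusted p-value under 0.05 and 23 a negative log2 fold change, with a list median of -0.099. Over all genes 11.8% had such an unadjusted p-value and 49.1% a negative log2 fold change. *Col3a1* changed by -0.54 ± 0.055 (SE, limma adjusted p = 4.4e-10) and *Col1a1*, the main fibrillar collagen chain, by -0.28 ± 0.044 (SE, limma adjusted p = 2.9e-05). In both, all 6 thymol libraries lay below every DMSO library, a separation shown by 1.16% of all genes. *Il11*, a cytokine that acts on fibroblasts downstream of TGF-β, ranged from 4.69 to 5.68 log2 CPM in DMSO and from 4.19 to 4.66 in thymol, a change of -0.51 (limma adjusted p = 0.034). *Plod2*, a lysyl hydroxylase that prepares collagen for crosslinking, changed by -0.30 (limma adjusted p = 0.021), and *Junb*, a subunit of AP-1, by -0.23 (limma adjusted p = 0.041). *Il11* lost the call without any one of DMSO replicates 1, 2 and 3 and thymol replicates 1, 2, 3 and 6. *Plod2* lost it without DMSO replicate 4 or 6 or thymol replicate 1, 3 or 6, and *Junb* without any one of DMSO replicates 1, 2, 3, 4 and 6 and thymol replicates 1, 2 and 3. The number of target genes called was 2 without thymol replicate 3, 3 without any one of DMSO replicates 1, 2, 4 and 6 and thymol replicates 2 and 6, 8 without thymol replicate 4 and 9 without thymol replicate 5. In the odd-numbered libraries alone *Col1a1* did not pass either. On the opposite strand *Prdx2* overlaps *Junb* and comes within 500 bases of its 3′ end, and *Prdx2* changed by 0.0064 (limma adjusted p = 0.987).

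The lists of latency and activation, of receptors and their associated proteins, and of the BMP and activin branch held 1 call each. These were 7.14%, 12.5% and 5% of their measured genes, beside 2.22% of all genes. Of 14 measured genes of latency and activation, *Adamts1*, a secreted metalloprotease, fell by 0.34 on the log2 scale (limma adjusted p = 0.017). All 6 of its thymol libraries lay below every DMSO library, as in 1.16% of all genes, and the list median was -0.084. The call was lost without thymol replicate 3 or 6, while 2 genes of the list passed without thymol replicate 5 and 3 after quantile normalization. Of 8 other receptors, co-receptors and receptor-associated proteins, *Dab2*, an endocytic adaptor and not itself a receptor, fell by 0.18 (limma adjusted p = 0.048), a call lost without any one of DMSO replicates 1, 2, 4 and 5 and thymol replicates 2, 3, 4 and 6, and the list median was -0.051. Of 20 measured genes of the BMP and activin branch, *Fstl1*, a secreted follistatin-like protein that binds BMP and activin ligands, fell by 0.25 (limma adjusted p = 0.0050), and the list median was 0.028. In that list 2 genes passed without DMSO replicate 4, thymol replicate 1 or thymol replicate 4. *Fstl1* passed with each library left out, and did not pass in the odd-numbered libraries alone.

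The lists of SMADs and partners and of inhibitors held no call in limma. Of 10 other SMADs and partners 2 had an unadjusted p-value under 0.05, beside 11.8% of all genes, with a list median of -0.00038. These were *Smad1*, the transducer of BMP signals, at -0.29 (limma adjusted p = 0.23), and *Tgfb1i1*, a focal adhesion adaptor, at -0.13 (limma adjusted p = 0.42). Of 13 further regulators listed as inhibitors, of which *Usp15* and *Rnf111* are better known for promoting TGF-β signaling, 1 had an unadjusted p-value under 0.05, and the list median was 0.076. The smallest p-values belonged to the deubiquitinase *Usp15* at 0.21 (limma adjusted p = 0.40) and to *Dcn*, a proteoglycan that binds TGF-β, at -0.12 (limma adjusted p = 0.43).

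The cultures held markers of fibroblasts and of macrophages, a cell type that also makes *Tgfb1* and *Tgfbi*. Of 16 fibroblast markers 14 were in the table, summing to between 20086 and 21328 CPM in DMSO and between 18560 and 19705 in thymol, ranges that did not overlap. Past the threshold were 2 of the 14 (14.3%, beside 2.22% of all genes), both lower with thymol. Of the 14, 8 had an unadjusted p-value under 0.05, beside 11.8% of all genes. Of the 14, 6 were also in the pathway lists, among them the collagens, and the other 8 summed to between 6706 and 7205 CPM in DMSO and between 6494 and 7222 in thymol, with 0 passing in limma, 4 lower and 4 higher. Over the 14 fibroblast markers the log2 fold changes ran from -0.54 to 0.64, 10 of them negative and 4 positive. That of the fibroblast receptor gene *Pdgfrb* was 0.0021 (limma adjusted p = 0.997). All 16 macrophage markers were in the table, summing to between 19364 and 21250 CPM in DMSO and between 19545 and 23371 in thymol. In limma 2 of the 16 fell and 1 rose at the adjusted threshold, 18.75% of this list beside 2.22% of the 10697 genes. An unadjusted p-value under 0.05 was held by 7 of the 16, beside 11.8% of all genes. The 16 log2 fold changes ran from -0.78 to 0.26, 8 of them negative and 8 positive. The defining macrophage genes were not at 0: in DMSO *Csf1r* averaged 9.02 log2 CPM, *Cd68* 8.80 and *Ptprc* 7.29, and their log2 fold changes were -0.15, 0.18 and -0.066, none past the threshold (limma adjusted p = 0.19, 0.055 and 0.81). Of 8 markers each of endothelium, keratinocytes and skeletal muscle, 2 of each were in the table. Both skeletal muscle markers had a negative log2 fold change, -0.45 each, 1 of them past the threshold (50%, beside 2.22% of all genes). They summed to between 132 and 159 CPM in DMSO and between 92.6 and 125 in thymol, ranges that did not overlap. The keratinocyte markers summed to between 12.8 and 17.3 CPM in DMSO and between 13.1 and 18.2 in thymol, and the endothelial markers to between 4.81 and 9.19 and between 5.00 and 8.64, with 0 of these 4 past the threshold in limma and 0 with an unadjusted p-value under 0.05. The part of any of these cell types in the lower *Tgfb2*, *Tgfb3* and *Tgfbi* was not tested, and in such bulk libraries fewer cells of a type and less RNA per cell cannot be told apart.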

How the data were processed

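The authors aligned the reads to GRCm38 with STAR 2.5.3, counted them per gene with HTSeq 0.6.1, required 30 reads or more in 6 or more samples for a gene to stay, dropped unannotated genes and applied TMM scaling. The deposited table holds log2 CPM with a prior count, for 10697 genes in 12 columns, each named for 1 library of the labels. Undoing the logarithm gave whole reads for 100% of values under 200 reads, within 0.02 of a read, and these summed to 5435985 to 9049796 per library, with a prior of 1.96 reads on average. QuantSeq reads are PCR products and can include copies of 1 molecule, so the recovered reads do not give an exact counting error. On the recovered reads 98.02% of the 10697 genes met the authors' filter, and why the others did not was not tested. Recovered reads served for CPM sums, shares and a voom fit.

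limma 3.58.1 in R 4.3.3 compared 6 thymol with 6 DMSO libraries, with a mean-variance trend, no covariate and two-sided p-values, corrected across the 10697 genes with Benjamini-Hochberg. The study's methods used a negative binomial model on counts, whereas the deposited values are log2 CPM, so limma was fitted to those as they stand and voom to the recovered reads as an alternative. The procedure was tested on simulated data. Intervals are 95%.

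The 10 genes and all lists were chosen with earlier results of these data known. Named besides the 10 are list genes past the threshold (at most 6 a list), the 2 with the smallest p-values in a list without any, and the 3 genes most like *Tgfbi* with a mean of at least 5 log2 CPM. Gene coordinates are from GENCODE vM21 on GRCm38. The labels do not say whether equal replicate numbers pair the libraries, and the main fit used no pairing. The alternatives were another variance model, a replicate block, 10 CPM as pseudocount, median centring, quantile normalization, voom, a filter on low levels and each library left out. Fits by odd or even library number were added after the data had been seen.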

Additional observations from a re-analysis of the deposited data

Results flagged for a closer look

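Dixon's ratio, an end library's distance to its nearest neighbour over the whole range, was set against its 95% critical value for 6 libraries. Of 62 groups, over the genes named, the read totals and the shares of ligands and receptors, 5 passed, where chance gives about 1 in 20, here 3.1. Thymol replicate 1 was the lowest thymol library for *Il11*, at 4.19 log2 CPM against 4.51 in the next, and for *Junb*, at 6.99 against 7.25, and the highest for *Emb*, at 5.47 against 5.03. Thymol replicate 5 was the deepest of its group, at 9049796 reads recovered from the table, and the second deepest had 6585162. The share of *Tgfb3* among the ligand reads was 64.2% in thymol replicate 2, against 57.4% in the next. None of the 10 genes had such a library in its own log2 levels.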

How the results depend on the processing

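*Tgfb2* kept its direction and passed in all 10 alternative settings and in all 12 fits with a library left out, from -0.65 to -0.50 on the log2 scale. Without the mean-variance trend 57 genes passed in all, 1 of the 10 (*Tgfb2*) and 1 of the pathway list genes, *Tgfb3* stood at -0.32 and *Tgfbi* at -0.56 without passing. With a library left out, 172 to 270 genes passed in all, 3 of the 10 in every fit and 3 to 13 list genes. In those fits *Tgfb1* ranged from -0.18 to 0.034 and *Tgfbr3* from -0.083 to 0.055. *Tgfbr3* was also below 0 with libraries centred on their medians (-0.00039) and with voom (-0.011). With quantile normalization 13 list genes passed. In the odd-numbered libraries alone 70 genes and 3 list genes passed, *Tgfbi* stood at -0.41 without passing, and *Tgfb1* (0.025), *Ltbp1* (-0.0014), *Tgfbr3* (-0.14) and *Smad7* (-0.27) changed sign. In the even-numbered ones *Tgfb3* stood at -0.26 without passing and *Tgfbr2* at -0.14. These halved sets hold fewer samples, and apart from that the cause was not tested. The replicate block was not part of the design, since libraries of equal number correlated by -0.051 to 0.27 in their deviations from the group means and only 2 of 6 by more than 0.1. With the replicate block 332 genes passed in all, 3 of the 10 and 17 list genes, and 1 of the 6 DMSO libraries correlated best with the thymol library of their own number. Shares of ligands and receptors moved by less than 1 SD in every alternative. The lowest read count of any of the 10 genes was 109, in *Tgfb1*, so counting noise weighs most on *Tgfb1*, *Tgfbr3* and *Tgfbi*.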
